A study of Mus musculus with 6 samples.

Results

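The proteasome is the barrel-shaped protease that degrades ubiquitin-tagged proteins, and its subunit genes were followed here in the mouse somatosensory thalamus. Members were all rows whose gene name starts with Psma, Psmb, Psmc, Psmd or Psme and whose counts summed to 60 or more over the 6 libraries. This gave 44 genes of 26554 features. The total was 104 counts for Psma8, the lowest inside the minimum, and 30 for Psmb11, the thymus-specific catalytic subunit, which was the nearest outside it. All 44 members passed the filter on low counts. The name rule also takes in Psmc3ip, whose product works in meiotic recombination and is not a proteasome subunit, and Psme2b, an intronless copy of Psme2 that may share reads with it.

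The series compares wild-type C57 mice that received an injection of 10 nL into the right VPL and VPM, the ventral posterior nuclei of the thalamus and its relay for touch and pain. The collagenase group received 0.01 U of type IV collagenase, which digests vessel basement membrane and causes a small haemorrhage, as a model of central post-stroke pain; the controls received saline. Tissue was taken 14 days later, with 3 libraries per group. The mice's age and whether a library came from 1 animal or a pool are not stated in the labels, so each p-value reflects spread among these samples only, which may be technical.

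The core of the proteasome is a stack of rings of alpha and beta subunits, and 3 of the beta subunits carry the active sites. A cap of ATPases (Psmc genes) and non-ATPases (Psmd genes) recognises, unfolds and feeds in substrates. In immune cells, and in other cells exposed to interferon, the constitutive catalytic subunits Psmb5, Psmb6 and Psmb7 are replaced in newly built particles by Psmb8, Psmb9 and Psmb10. The resulting immunoproteasome favours peptides that fit MHC class I. The same stimuli induce Psme1 and Psme2, which form the PA28 activator.

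Total counts ranged from 33603076 to 44815451 per library. The 8 thalamic relay markers were detected in all libraries and 0 of them passed the test, with summed levels of 2268 to 3280 CPM (a gene's counts relative to the TMM-scaled library total) in saline and 2203 to 2560 CPM in collagenase libraries. Saline libraries differed in a gene of neighbouring tissue: Neurod6, of hippocampus and cortex, measured 23.0, 39.8 and 0.176 CPM in saline replicates 1, 2 and 3, against 3.65, 0.538 and 0.570 CPM in collagenase libraries. By this gene saline replicates 1 and 2 stood apart from the other 4 libraries. Leukocyte markers moved with the groups. Of 4 general leukocyte genes Ptprc, Laptm5 and Cd53 rose, and the summed level of the 4 was 91.0 to 94.9 CPM in saline and 154.1 to 213.7 CPM in collagenase libraries. All 5 tested T and NK cell genes rose, of 8 listed, where 2.12% of all tested features rose. Cd3d, Cd3e, Cd3g, Cd8a and Nkg7 had 0 counts in saline. A gene with 0 counts in saline can pass the filter on low counts only through the collagenase group. The direction of such genes was thus set in advance, and their count is no separate support. In bulk tissue, a change in the number of cells of a type and a change in RNA per cell cannot be told apart.

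At 14 days after collagenase 0 of the 44 members differed between groups at a false discovery rate of 0.05 in edgeR's quasi-likelihood model. Among all 17240 tested features 2.41% passed. Adjusted p-values of the members ran from 0.459 (Psma5) to 0.995 (Psmd11), and 0 members had an unadjusted p under 0.05, where 12% of tested features (2075) did. DESeq2 also called 0 members. The collagenase and saline values overlapped for every one of the 44 members, whereas 17.6% of tested features had no overlap between groups (10.1% higher and 7.5% lower after collagenase). The median log2 fold change was -0.04 over the members and -0.02 over all tested features. The extremes were Psmb9, with 0.48, and Psmb5, with -0.34.

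**Figure D1:**
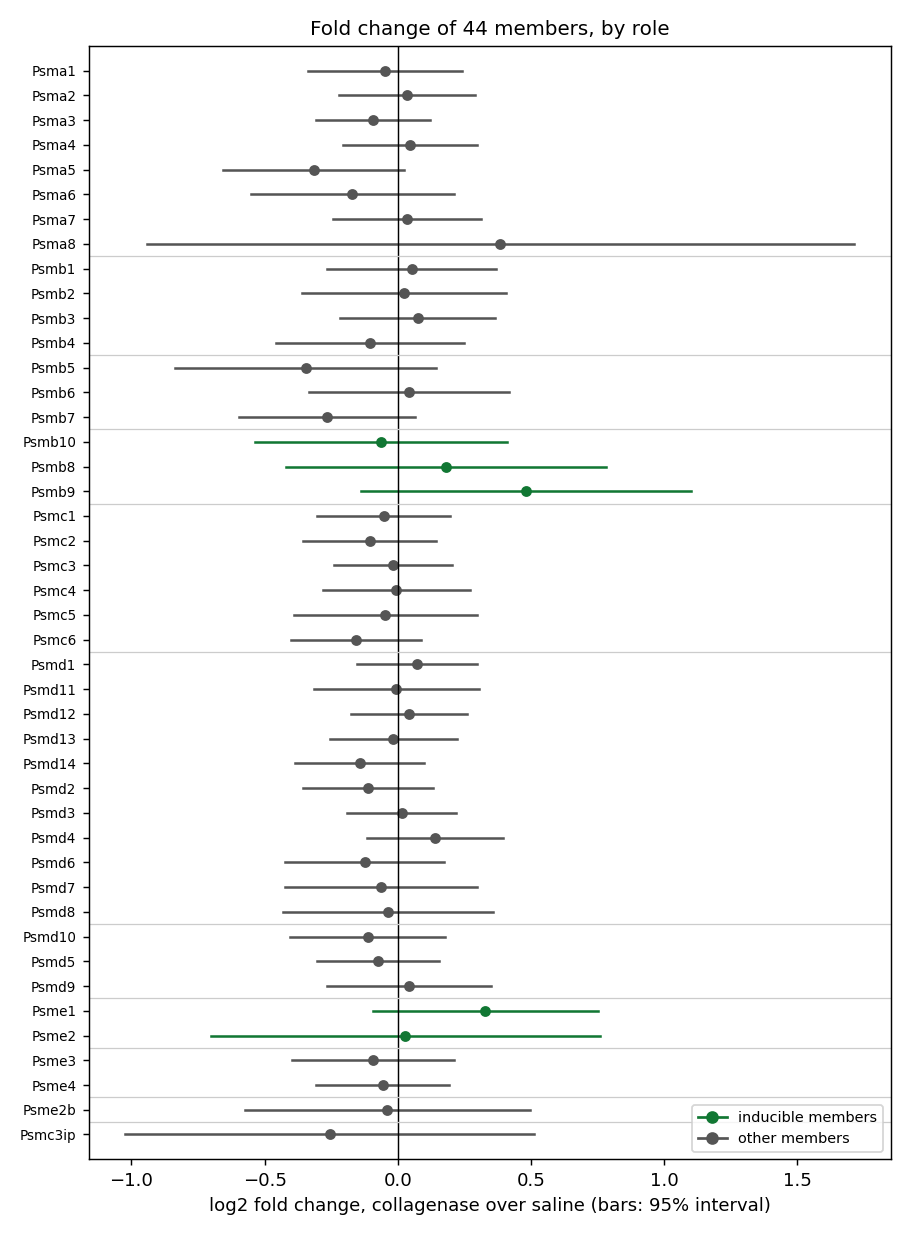
Log2 fold change of collagenase over saline for the 44 members, ordered by role from the alpha ring at the top; points are edgeR estimates and bars are 95% intervals. All 44 intervals include 0, and the widest belongs to Psma8 (-0.94 to 1.71).

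The precision behind these values differed between members. For the 36 constitutive members (all but the inducible genes Psmb8, Psmb9, Psmb10, Psme1 and Psme2, and Psma8, Psme2b and Psmc3ip) the whole 95% interval of the log2 fold change lay between -1 and 1. For 32 of the 36 it lay between -0.5 and 0.5. Of all tested features 75.6% had an interval within the wider bounds and 43.5% within the narrower ones. Of the 5 inducible members, which are less abundant, 4 had an interval within the wider bounds and 0 within the narrower.

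The inducible catalytic subunits were expressed below their constitutive counterparts in both groups, by a distance that depended on the length used for Psmb8 and Psmb10. On the deposited FPKM scale, which corrects for transcript length, Psmb8 averaged 4.55 ± 0.799 in saline and 5.52 ± 2.31 in collagenase libraries (SD, n = 3 per group). Psmb5, whose place Psmb8 takes, averaged 83.0 ± 28.3 and 68.8 ± 6.68 FPKM. Psmb9 averaged 1.88 ± 0.447 and 2.71 ± 0.832 FPKM, against 55.7 ± 13.2 and 60.7 ± 8.96 for its counterpart Psmb6. Psmb10 was the most abundant of the inducible 3, with 16.0 ± 4.89 and 16.2 ± 2.56 FPKM, against 67.1 ± 15.9 and 59.1 ± 3.54 for Psmb7. The 36 constitutive members had saline means from 7.08 (Psmd9) to 99.1 FPKM (Psmc5), with a median of 48.8.

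**Figure D2:**
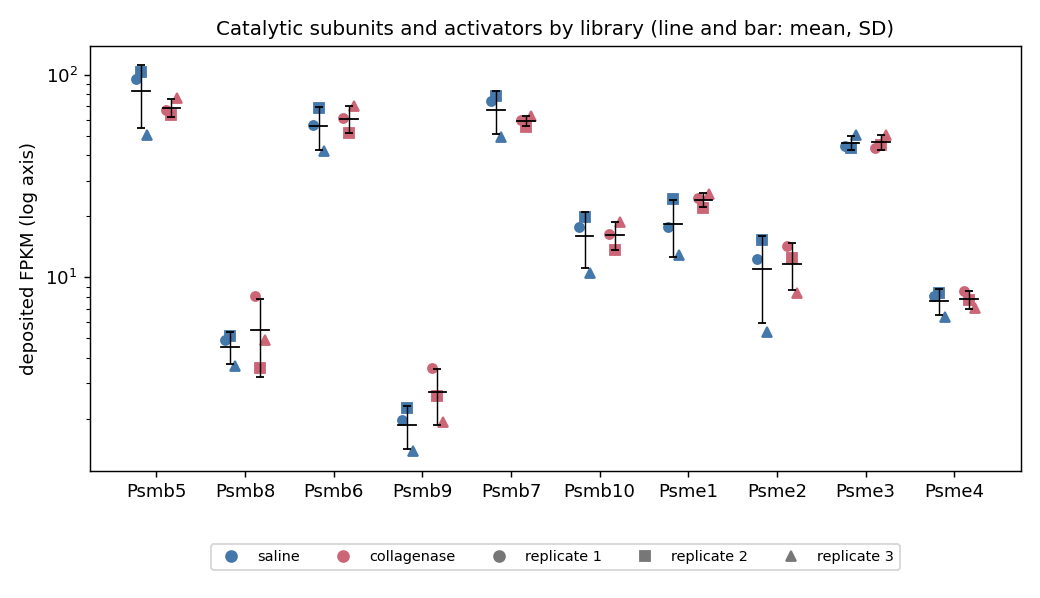
Deposited FPKM (log axis) of the catalytic subunits and the activators in each library; marker shapes give the replicate, horizontal lines the mean and bars the SD of 3 libraries. Psmb8 and Psmb9 lie more than an order of magnitude below Psmb5 and Psmb6 in the group means of saline, and the groups overlap for each gene.

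Psmb8 (ENSMUSG00000024338, chromosome 17, 34197721 to 34201454, plus strand, GRCm38) encodes the inducible chymotrypsin-like subunit. It measured 8.47, 8.70 and 6.98 CPM in saline replicates 1, 2 and 3, against 12.9, 6.10 and 8.34 CPM in collagenase replicates 1, 2 and 3. Collagenase replicate 1 was the highest of the 6 libraries and collagenase replicate 2 the lowest. The log2 fold change was 0.18 (standard error, SE, 0.26; 95% interval -0.42 to 0.78; edgeR adjusted p 0.866). It became -0.16 without collagenase replicate 1 and 0.40 without collagenase replicate 2.

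Psmb9 (ENSMUSG00000096727, chromosome 17, 34181987 to 34187764, minus strand) is the inducible counterpart of Psmb6. Its levels were 2.66, 3.03 and 1.91 CPM in saline, against 4.50, 3.36 and 2.75 CPM in collagenase replicates 1, 2 and 3. Collagenase replicates 1 and 2 lay above all saline values and collagenase replicate 3 lay within them. This was the largest positive estimate of the 44 members: a log2 fold change of 0.48 (SE 0.27, interval -0.14 to 1.10, edgeR adjusted p 0.555). On the linear scale the interval runs from 0.910-fold to 2.15-fold. The estimate was 0.27 without collagenase replicate 1 and 0.32 without saline replicate 3, and at most 0.64, without collagenase replicate 3.

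Psmb10 (ENSMUSG00000031897, chromosome 8, 105935735 to 105938444, minus strand), the inducible trypsin-like subunit, measured 24.8, 27.2 and 16.2 CPM in saline, against 20.9, 18.6 and 25.7 CPM in collagenase replicates 1, 2 and 3. The collagenase values all lay inside the saline range. Its log2 fold change was -0.06 (interval -0.53 to 0.41, edgeR adjusted p 0.951). The sign of this estimate turned with the FPKM scale, where it was 0.054.

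Psme1 and Psme2, which form the PA28 ring that opens the core for peptides, lie close together on chromosome 14 (55578123 to 55581529 on the plus strand and 55587441 to 55591113 on the minus strand). Psme1 measured 20.4, 27.8 and 16.5 CPM in saline, against 26.6, 25.1 and 29.4 CPM in collagenase replicates 1, 2 and 3. Saline replicate 2 reached the collagenase level and the other two did not. Its log2 fold change was 0.33 (SE 0.18, interval -0.09 to 0.75, edgeR adjusted p 0.555). It was 0.17 without saline replicate 3 and 0.55 without saline replicate 2. Psme2 measured 11.8, 14.9 and 6.07 CPM in saline, against 13.4, 11.7 and 8.37 CPM in collagenase libraries, with replicate 3 the lowest of each group. Its log2 fold change of 0.03 had an interval of -0.70 to 0.76, and its edgeR adjusted p was 0.985. The other activators, Psme3 (the nuclear PA28 gamma) and Psme4 (PA200), had log2 fold changes of -0.09 and -0.06.

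Psmb5 and Psmb7 gave the clearest case of a result that rests on 1 library. Psmb5, the constitutive chymotrypsin-like subunit, measured 91.2, 96.7 and 53.3 CPM in saline, against 58.7, 59.4 and 71.9 CPM in collagenase replicates 1, 2 and 3. Saline replicate 3 was the lowest of the 6 libraries, and saline replicates 1 and 2 were the highest. With all libraries the log2 fold change was -0.34 (SE 0.21, interval -0.83 to 0.15, edgeR adjusted p 0.606). Psmb7, the constitutive trypsin-like subunit, measured 90.9, 95.2 and 66.5 CPM in saline, against 67.9, 66.7 and 75.6 CPM in collagenase libraries, a log2 fold change of -0.27 (edgeR adjusted p 0.539). Psma5, of the alpha ring, was also highest in saline replicates 1 and 2, but its lowest library was collagenase replicate 2, with 51.7, 54.0 and 38.3 CPM in saline, against 37.2, 35.5 and 43.0 CPM in collagenase libraries (log2 fold change -0.32, edgeR adjusted p 0.459).

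Without saline replicate 3 these 3 members passed the edgeR test as lower after collagenase. The log2 fold changes were then -0.57 for Psmb5 (adjusted p 0.0270), -0.41 for Psmb7 (adjusted p 0.0405) and -0.46 for Psma5 (adjusted p 0.0476). In that fit 5.21% of 17594 tested features were called, 2.35% lower and 2.86% higher. With all libraries 0.29% were called lower. Another 4 members (Psmd6, Psmc6, Psmd14 and Psma6) then had an unadjusted p under 0.05, also with negative fold changes. Psmb6, the other constitutive catalytic subunit, did not pass in that fit, and its log2 fold change turned from 0.04 with all libraries to -0.086. The saline side of that fit is replicates 1 and 2, the libraries with the high Neurod6 levels, and the part of neighbouring tissue in these calls was not tested. Leaving out any other single library called 0 members.

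Saline replicate 3 differed from the other saline libraries across the family and not in 1 direction. It was the lowest of the 3 saline libraries for 29 of the 44 members and the highest for 13. For 40 of the 44 its log2 distance from the mean of saline replicates 1 and 2 was larger than the member's log2 fold change between groups. The distance sets 1 library against 2, and the fold change 3 against 3, so the distance varies more even in unchanged genes. These counts are given for the members alone, without a share over all features, and do not show that the library is unusual. All 6 catalytic subunits and both PA28 genes were lowest there among the saline libraries: the distance was -0.82 for Psmb5, -0.68 for Psmb10, -0.57 for Psmb9 and -1.13 for Psme2. The non-ATPase cap genes were mixed, with 4 of 11 lowest and 6 highest in that library. Psmd8 and Psmd7, lid subunits, stood 0.49 and 0.47 above the other saline libraries, and Psme3 stood 0.35 above. The median distance was -0.22 over the members and -0.003 over 17023 tested features with values. Across the 44 members, the distance had a Spearman rho of 0.43 with the transcript length implied by the FPKM values, and 0.05 across the 17023 features. Those genes share the 3 libraries and are not independent, and the part of length or of tissue in the difference was not tested.

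**Figure D3:**
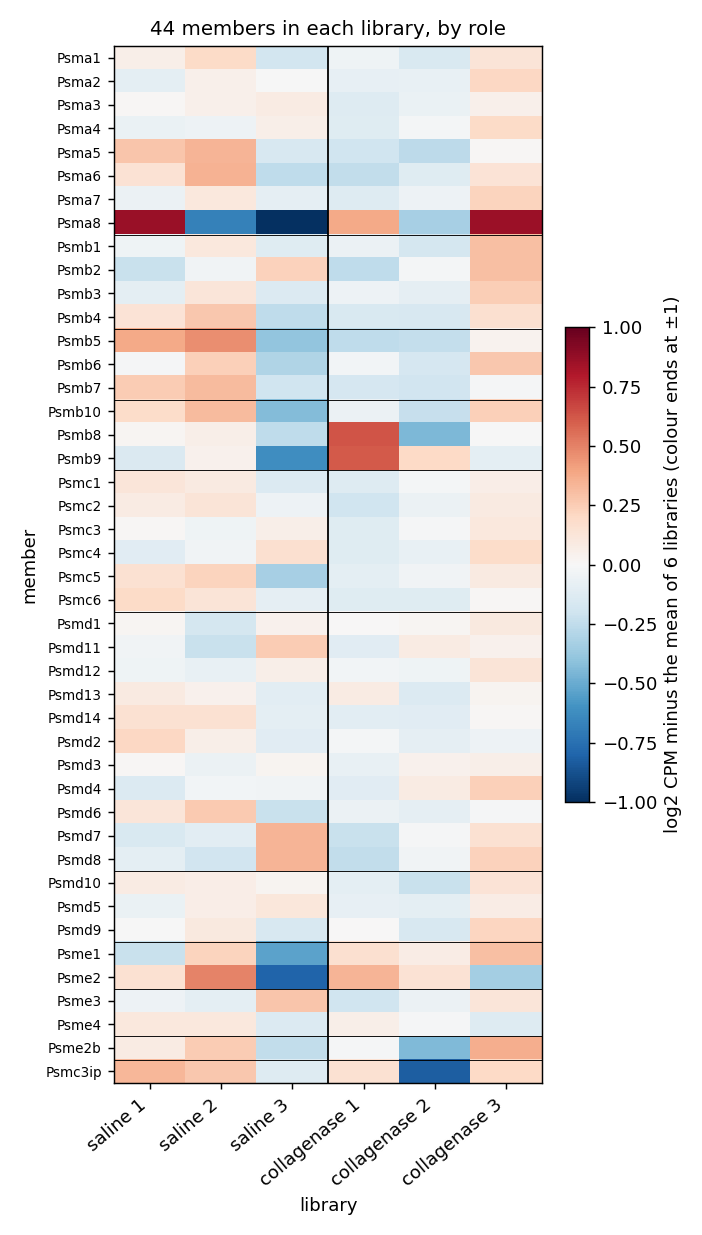
Log2 CPM of each member minus its mean over the 6 libraries, with members as rows grouped by role and libraries as columns; red is above the mean and blue below. Saline 3 is blue for the catalytic subunits and PA28 genes and red for Psmd7, Psmd8, Psmd11 and Psme3, and Psmb8 and Psmb9 are reddest in collagenase 1.

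Setting the inducible catalytic subunits against the constitutive ones within each library gave a narrower spread in saline than the single genes did. On the FPKM scale Psmb8, Psmb9 and Psmb10 together made up 9.84%, 9.81% and 9.88% of the summed level of the 6 catalytic subunits in saline replicates 1, 2 and 3. The share was 12.99%, 10.4% and 10.9% in collagenase replicates 1, 2 and 3. All 3 collagenase libraries thus lay above all 3 saline libraries, by a margin that was small for replicates 2 and 3. As a log2 ratio per kilobase of exon, the means were -3.09 ± 0.035 in saline and -2.84 ± 0.161 in collagenase libraries (SD, n = 3 per group), a difference of 0.24. With CPM not divided by length the difference was 0.26. A score over chosen members carries no p here, and an exact two-sided permutation test of 3 against 3 libraries cannot give less than 0.1. Of single tested features 17.6% had no overlap between groups, and no such share was computed for ratios. The combined share depends on both sides. Mean FPKM was lower after collagenase for Psmb5 (83.0 to 68.8) and Psmb7 (67.1 to 59.1) and higher for Psmb6 (55.7 to 60.7). It was higher for Psmb8 (4.55 to 5.52) and Psmb9 (1.88 to 2.71). For Psmb10, the most abundant inducible subunit, it was 16.0 and 16.2.

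No single pair separated the groups. Psmb8 made up 4.89%, 4.73% and 6.70% of the Psmb8 and Psmb5 level in saline replicates 1, 2 and 3, against 10.8%, 5.35% and 6.02% in collagenase libraries. Psmb9 made up 3.38%, 3.20% and 3.19% of its pair with Psmb6 in saline and 5.57%, 4.81% and 2.69% in collagenase libraries. Psmb10 made up 19.4%, 20.2% and 17.7% of its pair with Psmb7 in saline and 21.4%, 19.8% and 23.1% in collagenase libraries. Collagenase replicate 1 was highest for the first 2 pairs and collagenase replicate 3 for the third. These shares are on the FPKM scale and depend on the length used. Per kilobase of exon, Psmb10 averaged 34.8% of its pair in saline and 38.2% in collagenase libraries. Psmb8 then averaged 2.70% and 3.72%, and Psmb9 2.60% and 3.61%. The groups overlapped for each pair on that scale too. The summed level of the general leukocyte genes given above moved in the same direction as the combined share, and the part of leukocytes in it was not tested.

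**Figure D4:**
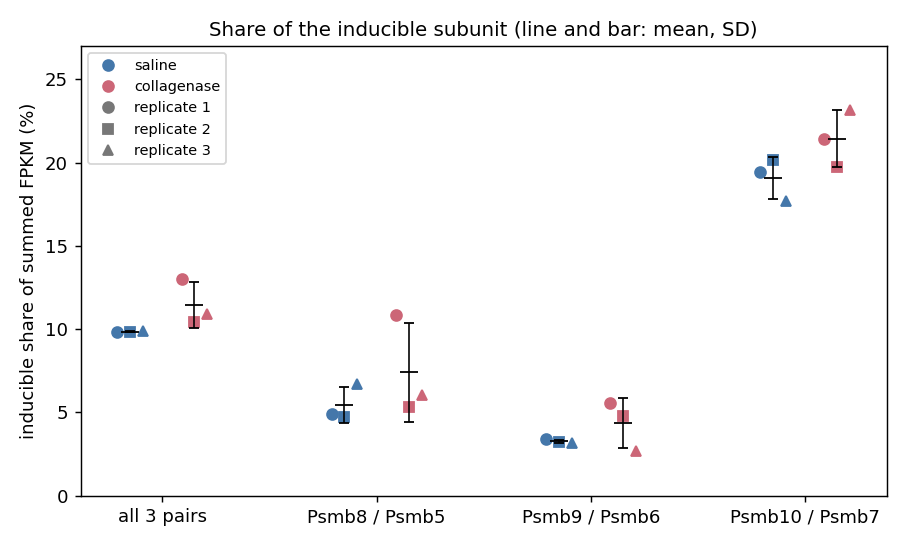
Share of the inducible subunits in the summed FPKM of all 6 catalytic subunits and of each pair, per library; shapes give the replicate, horizontal marks the mean and bars the SD of 3 libraries. For all 3 pairs together the saline libraries sit between 9.81% and 9.88% and the collagenase libraries between 10.4% and 12.99%, and each pair alone overlaps.

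The remaining subunits are described by role. In the alpha ring, which gates the core, the 7 common subunits Psma1 to Psma7 averaged 48.0 to 72.2 CPM in saline, and Psma8, a testis form, averaged 0.362 CPM. Psma8 had the highest estimate of the ring, 0.39 on the log2 scale (SE 0.58). It rests on 104 counts in all, and the estimate ranged from 0.07 to 1.23 when single libraries were left out. Among the structural beta subunits, Psmb3 had the highest log2 fold change, 0.07, and Psmb4 the lowest, -0.10. Psmb4 measured 116.7, 127.9 and 89.0 CPM in saline, against 96.0, 95.4 and 119.1 CPM in collagenase libraries, so the groups overlapped widely.

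All 6 ATPases had log2 fold changes between -0.16 (Psmc6) and -0.01 (Psmc4), and 6 of 6 intervals lay between -0.5 and 0.5. Psmc6 measured 102.4, 98.1 and 84.2 CPM in saline, against 82.7, 82.5 and 90.2 CPM in collagenase libraries. The sign of Psmc4, the estimate nearest 0, depended on the scaling: it was at 0.077 with library size alone and at 0.088 on the FPKM scale. Psmc6 stayed negative in both, at -0.085 and -0.057. The 11 non-ATPase subunits ran from -0.14 (Psmd14, the deubiquitinase of the lid) to 0.14 (Psmd4, a ubiquitin receptor). Psmd4 measured 80.9, 87.0 and 86.7 CPM in saline, against 82.0, 93.8 and 104.8 CPM in collagenase libraries. The chaperones of cap assembly, Psmd5, Psmd9 and Psmd10, had log2 fold changes of -0.07, 0.04 and -0.11. Psme2b measured 7.02 ± 1.19 CPM in saline, against 6.83 ± 1.87 CPM in collagenase libraries. Psmc3ip measured 1.55 ± 0.254 and 1.30 ± 0.449 CPM, with a log2 fold change of -0.26.

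The listed genes that build, regulate or feed the proteasome gave 0 calls as well, where 2.41% of all tested features passed. At that share lists this short can give 0 calls without differing from other genes. Of 5 assembly genes (Psmg1 to Psmg4 and Pomp) 0 passed, with a median log2 fold change of -0.19; the smallest p was that of Psmg2, a chaperone of alpha ring assembly, at 17.7 ± 1.14 CPM in saline, against 15.5 ± 2.00 CPM in collagenase libraries. Of 12 partners and shuttle factors 0 passed. Ubqln2, which carries ubiquitinated proteins to the proteasome, came closest: it measured 225.6, 218.0 and 215.7 CPM in saline, against 183.5, 175.6 and 164.3 CPM in collagenase replicates 1, 2 and 3. Its groups did not overlap, which held for 17.6% of all tested features, but the log2 fold change of -0.33 (SE 0.09) had an edgeR adjusted p of 0.146. Of 4 genes of the Nfe2l1 route, through which cells raise all subunits when proteasome activity falls short, 0 passed. Nfe2l1 itself measured 269.7 ± 16.5 CPM in saline, against 305.0 ± 19.3 CPM in collagenase libraries (log2 fold change 0.18, edgeR adjusted p 0.563). Of 5 ubiquitin genes 0 passed, and Rps27a had the smallest p of these, with a log2 fold change of -0.27 (SE 0.28).

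Among the listed genes downstream of the immunoproteasome and of interferon signalling some passed the test. Of 12 genes of peptide transport and class I loading 2 rose and 0 fell, where 2.12% of all tested features rose. B2m, the class I light chain, rose by 1.04 on the log2 scale, from 137.3 ± 16.6 to 282.6 ± 30.6 CPM (SE 0.13, edgeR adjusted p 0.00688), and H2-D1, a class I heavy chain whose reads may be shared with related H2 genes, had a log2 fold change of 1.69 (SE 0.24, edgeR adjusted p 0.0131). Of 11 tested genes of the interferon gamma route Irf8, a myeloid transcription factor, rose (log2 fold change 1.72, edgeR adjusted p 0.0121). Ifng itself had 4 counts over all libraries and was not tested. Of 12 type I interferon targets 9 fell and 0 rose, where 0.29% of all tested features fell. The largest falls were those of Ifi44, Rsad2 and Oasl1, with log2 fold changes of -2.78, -2.18 and -2.18. The difference between these lists and the members was not itself tested.

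**Figure D5:**
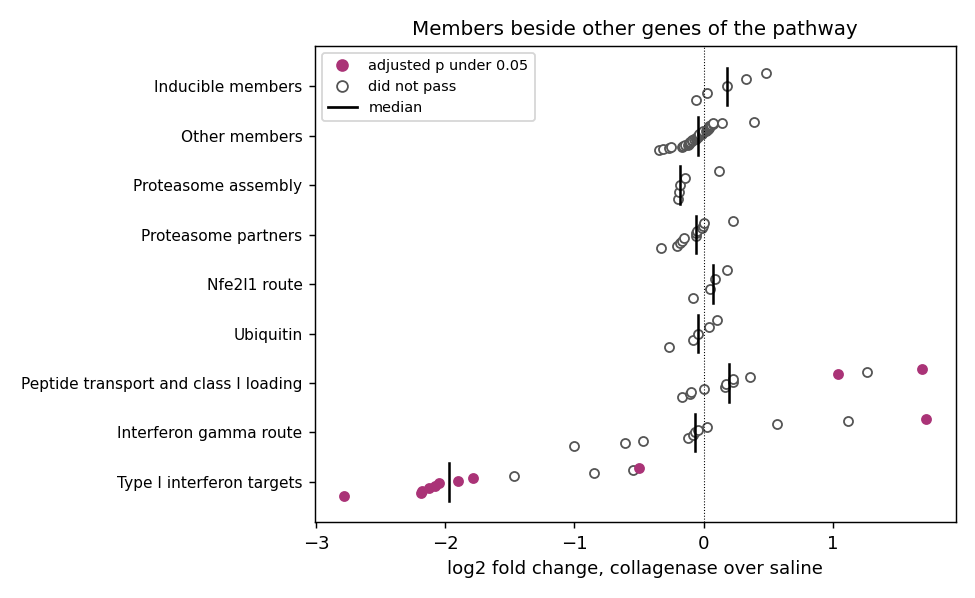
Log2 fold change of collagenase over saline for the members and for the other listed genes; each circle is 1 gene, filled circles passed at an adjusted p under 0.05 and vertical lines are medians. Inducible and other members lie between -0.34 and 0.48 with 0 filled circles, while B2m and H2-D1 of class I loading lie to the right and 9 of 12 type I interferon targets lie filled to the left.

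Psmb9 and Tap1, the peptide transporter chain, are neighbours on opposite strands, and their RefSeq start sites on chromosome 17 (GRCm38.p6) are at 34187330 and 34187556, with 225 bases between. Tap1 measured 11.6, 10.4 and 7.77 CPM in saline, against 12.9, 7.74 and 7.07 CPM in collagenase libraries (log2 fold change -0.11, edgeR adjusted p 0.93). The log2 ratio of Psmb9 to Tap1, chosen after the values were seen, was -2.13, -1.79 and -2.03 in saline and -1.52, -1.20 and -1.36 in collagenase replicates 1, 2 and 3, so the groups did not overlap in this ratio. The GENCODE M21 annotation differs from these start sites: its Psmb9 runs to 34187764, past the RefSeq start of Tap1. In GENCODE M21 exons of both genes overlap by up to 212 bases. Psmb8 and Psmb7 also overlap an exon of a gene on the other strand, by 259 and 253 bases. The strand setting of the counts is not stated in the labels, so reads of such pairs cannot be told apart.

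Promoter windows of 250 bases before to 50 after the RefSeq start (GRCm38.p6) were found for 37 of the 44 members and searched on both strands. The letters of an interferon-stimulated response element, GAAA repeated after any 2 bases, were in the windows of 4 of the 37 members (10.8%) and of 3.99% of 27025 genes, and of the inducible members in that of Psme1 alone. The letters of a gamma-activated site, TTCNNNGAA, were in 2 of 37 (5.41%) against 9.55% of genes, and of the inducible members in that of Psmb8 alone. The letters TGANNNNGC, an antioxidant response element core of the kind that Nfe2l1 can bind, were in 21 of 37 (56.8%) against 45.0% of genes. The letters of an NF-kB site were in 1 of 37 (2.70%, Psme4) against 1.63% of genes. The first 2 motifs belong to the signals known to induce the immunoproteasome, so their matches in inducible members are given with flanks, 5′ to 3′ in the gene's direction, the matched letters in capitals. The Psme1 match, on the strand opposite to the gene, is at chr14:55578493-55578522 (plus strand) and the Psmb8 match at chr17:34198088-34198116 (plus strand).
Psme1: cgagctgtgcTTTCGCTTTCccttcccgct
Psmb8: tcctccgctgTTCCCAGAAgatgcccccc
A match describes these letters and not a bound site, and both genes' groups overlapped in level.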

How the data were processed

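The RNA libraries were grouped by their titles, 3 saline and 3 collagenase. Per library, the authors deposited raw counts and FPKM by feature, per the file headers. The submitters' processing notes list GRCm38, HISAT2 2.2.1, StringTie, FastQC and DESeq2, without roles. The annotation, strand setting and handling of multi-mapping reads are not stated there. Annotation text on lines of its own (10 to 30 per file) was skipped. Symbols came from a reference table by Ensembl identifier (22022 of 22036 matched), positions and exon lengths from GENCODE M21 (GRCm38), and promoter windows from RefSeq (GRCm38.p6).

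The test on counts used R 4.3.3 and edgeR 4.0.16: filterByExpr, TMM factors (0.898 to 1.06) and a robust, two-sided quasi-likelihood F-test. Benjamini-Hochberg adjustment covered 17240 features, with a threshold of 0.05. SEs and 95% intervals were derived from the F statistic and its degrees of freedom. Levels are TMM-scaled CPM, or FPKM where genes are compared with each other. The ratio of counts to FPKM differed between libraries by 1.03-fold in the median member and 1.48-fold at most (Psma8). Alternatives were DESeq2 1.42.0, other scalings, no filter, limma 3.58.1 on log2(FPKM + 0.1), the replicate number as a block and leaving out each library. The code was tested on simulated counts. Members, lists and tests were chosen with earlier results of these data known. Named members are the inducible subunits, Psmb5, Psmb6, Psmb7, Psme3, Psme4, the highest and lowest log2 fold change of each role, the members near the count minimum and Psmc3ip. From each other list, up to 3 genes that passed were named, by fold change, or the one with the smallest p. Genes named outside this rule were chosen after their values were seen.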

Additional observations from a re-analysis of the deposited data

How the results depend on the processing

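The count of called members was 0 with DESeq2, every other scaling, no filter, limma on log2 FPKM and the replicate block, and 0 to 3 over the fits without a library; the 3 came without saline replicate 3. Called inducible members were 0 throughout. Over all features 416 were called (366 higher, 50 lower), 813 with DESeq2 (616 higher, 197 lower) and 302 with the replicate block. The lower count was 29 with library size alone and 24 with limma on log2 FPKM. Without single libraries the totals ranged from 85 to 917, the higher from 81 to 503 and the lower from 4 to 414. Deviations from the group mean correlated at 0.04, 0.11 and 0.20 between same-numbered libraries. Between differently numbered libraries the correlations ran from -0.16 to 0.08. These values cannot settle whether the titles' numbers mark pairs.

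Limma on log2 FPKM moved the median of all features from -0.02 to 0.08 and that of the members from -0.04 to 0.06; with library size alone the medians were 0.06 and 0.04. Signs turned for Psmb10 (0.054), Psme3 (0.0062), Psme4 (0.034) and Psmc4 (0.088) with limma on log2 FPKM, for Psme4 (0.018) and Psmc4 (0.077) with library size alone, and for Psmc4 (0.029) with upper-quartile factors. The cause was not tested. Over the fits without a library, signs turned for Psmb8 (-0.16 to 0.40), Psmb10 (-0.26 to 0.084), Psme2 (-0.26 to 0.32), Psmb6 (-0.089 to 0.18), Psme3 (-0.18 to 0.030), Psmb3 (-0.037 to 0.16), Psmb4 (-0.24 to 0.0060), Psmc4 (-0.10 to 0.074) and Psmc3ip (-0.41 to 0.0015). The difference in the inducible to constitutive log2 ratio ranged from 0.16 to 0.32 over these fits and was 0.35 as the mean of the 3 pair ratios.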

Other observations

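Further values concern the PA28 subunits and the proteasome inhibitor. The log2 ratio of Psme1 to Psme2, whose products assemble into 1 ring, was 0.79, 0.90 and 1.44 in saline replicates 1, 2 and 3, against 1.00, 1.11 and 1.81 in collagenase libraries, highest in replicate 3 of each group. Psmf1, which encodes an inhibitor of the core particle, measured 30.2, 32.1 and 30.1 CPM in saline and 34.0, 35.5 and 38.5 CPM in collagenase libraries. Its groups did not overlap, which held for 17.6% of all tested features. The log2 fold change of Psmf1, 0.22 (SE 0.10), had an edgeR adjusted p of 0.418. Both were chosen after the values were seen.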
